A study of Mus musculus with 6 samples.

Results

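Cell cycle genes were examined in whole kidneys of Nampt knockout and control mice, as a set of 36 genes of the phases of the division cycle. All 36 had a probe whose accession matched the RefSeq gene table, among 21154 genes named on the array, and 32 of them were bright enough to be tested, among 15307 genes tested. There were 3 male C57BL/6J mice labelled as iNampt-conditional knockouts (Nampt CKO below), set against 3 male C57BL/6J mice labelled Control. By the title of the series, Nampt was deleted in renal proximal tubules. The Cre driver, the control genotype and the age of the animals are not given in the sources used here, and the labels record no diabetes or other treatment for either group. Total RNA of each kidney sample was labelled with Cy3 and read on 1 single-colour Agilent array per animal.

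Cells that enter division first make cyclin D, then cyclin E, which drives them into S phase, when the MCM helicase opens the DNA and PCNA, ribonucleotide reductase and thymidylate synthase serve its copying. Cyclin A, the B cyclins with their kinase CDK1, the Aurora and Polo kinases, the spindle checkpoint and the anaphase-promoting complex then carry the cell through mitosis. Genes of the first wave are known to be driven by E2F factors, and genes of the second by the MuvB complex with B-Myb and FoxM1, which acts through a promoter element called the CHR, often with CCAAT boxes beside it. Most tubular cells of an adult kidney rest outside the cycle and can re-enter it after injury. In bulk tissue, more cells in cycle and more transcript per cell cannot be told apart.

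The members were divided by role into 11 S-phase genes, 24 mitotic genes and the G1 cyclin gene Ccnd1. Promoter windows of 250 bases before to 50 bases after the gene start, from RefSeq on GRCm38.p6, were at hand for 9 S-phase and 19 mitotic members and for 27025 genes in all. The CHR was searched as TTTGAA, the CCAAT box as CCAAT and the E2F site as TTTCCCGC, TTTCGCGC, TTTGCCGC or TTTGGCGC, each on both strands with overlapping matches allowed. The CHR letters stood in the windows of 14 of the 19 mitotic members (73.7%), of 1 of the 9 S-phase members (11.1%) and of 20.2% of all genes. CCAAT letters stood in 16 of 19 mitotic members, 7 of 9 S-phase members and 41.1% of all genes. E2F letters stood in 4 of the 9 S-phase members (44.4%), in 1 of the 19 mitotic members and in 2.6% of all genes. The 2 classes thus differed in the letters of their promoters, as counts without a test; a match describes the sequence and does not show that a factor binds.

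The stretches below are the 200 bases just before the gene start, 5′ to 3′, with matches in capitals (TTTGAA or its complement TTCAAA for the CHR, CCAAT or its complement ATTGG, and the E2F letters on either strand). Cdk1, Cdc20, Mki67 and Top2a are shown as examples from the 14 of 19 mitotic members with the CHR letters. Their levels moved together from animal to animal, as did those of most other mitotic members. A link between the letters and the levels was not tested.
Cdk1 (chr10:69352913-69353112, minus strand): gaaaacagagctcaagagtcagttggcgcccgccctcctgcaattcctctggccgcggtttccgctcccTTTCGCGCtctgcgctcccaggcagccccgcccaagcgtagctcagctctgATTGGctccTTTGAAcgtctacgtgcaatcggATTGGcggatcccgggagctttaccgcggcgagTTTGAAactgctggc
Cdc20 (chr4:118437344-118437543, minus strand): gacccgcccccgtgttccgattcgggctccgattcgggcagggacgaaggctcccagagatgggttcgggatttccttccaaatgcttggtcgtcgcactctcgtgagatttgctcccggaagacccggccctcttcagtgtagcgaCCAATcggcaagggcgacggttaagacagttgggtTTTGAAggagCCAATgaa
Mki67 (chr7:135716380-135716579, minus strand): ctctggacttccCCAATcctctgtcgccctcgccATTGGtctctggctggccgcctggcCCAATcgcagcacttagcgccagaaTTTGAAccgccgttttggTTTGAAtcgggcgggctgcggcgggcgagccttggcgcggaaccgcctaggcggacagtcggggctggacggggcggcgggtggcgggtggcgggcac
Top2a (chr11:99024190-99024389, minus strand): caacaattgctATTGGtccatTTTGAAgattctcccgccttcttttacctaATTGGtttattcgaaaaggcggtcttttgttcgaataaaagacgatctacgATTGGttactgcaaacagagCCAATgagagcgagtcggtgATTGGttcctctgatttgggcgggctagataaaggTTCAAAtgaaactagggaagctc
Each of these 4 stretches held the CHR letters and at least 2 CCAAT boxes, and that of Cdk1 also held an E2F match.

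For S phase, the helicase genes Mcm5, Mcm6 and Mcm7 are shown for their E2F matches.
Mcm5 (chr8:75109309-75109508, plus strand): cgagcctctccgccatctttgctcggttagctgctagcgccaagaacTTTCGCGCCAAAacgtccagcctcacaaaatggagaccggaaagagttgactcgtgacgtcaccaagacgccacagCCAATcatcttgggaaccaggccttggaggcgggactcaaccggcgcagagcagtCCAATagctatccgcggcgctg
Mcm6 (chr1:128359706-128359905, minus strand): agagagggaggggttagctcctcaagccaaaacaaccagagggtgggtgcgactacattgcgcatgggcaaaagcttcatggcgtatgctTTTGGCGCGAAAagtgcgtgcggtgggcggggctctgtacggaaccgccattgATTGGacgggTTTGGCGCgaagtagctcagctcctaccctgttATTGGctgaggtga
Mcm7 (chr5:138171884-138172083, minus strand): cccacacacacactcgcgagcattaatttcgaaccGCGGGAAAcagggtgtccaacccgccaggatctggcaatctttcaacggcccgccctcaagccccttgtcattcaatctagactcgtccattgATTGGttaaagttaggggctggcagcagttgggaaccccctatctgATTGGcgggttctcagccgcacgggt
The E2F matches of Mcm5, and the first pair of Mcm6, overlapped on opposite strands. None of these 3 stretches held the CHR letters.

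Rrm2 and Nusap1 are shown because they were the members with the smallest p.
Rrm2 (chr12:24708054-24708253, plus strand): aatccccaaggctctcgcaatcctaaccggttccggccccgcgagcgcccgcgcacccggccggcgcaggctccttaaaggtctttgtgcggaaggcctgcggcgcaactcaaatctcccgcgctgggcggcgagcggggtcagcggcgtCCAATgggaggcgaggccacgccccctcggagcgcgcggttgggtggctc
Nusap1 (chr2:119618098-119618297, plus strand): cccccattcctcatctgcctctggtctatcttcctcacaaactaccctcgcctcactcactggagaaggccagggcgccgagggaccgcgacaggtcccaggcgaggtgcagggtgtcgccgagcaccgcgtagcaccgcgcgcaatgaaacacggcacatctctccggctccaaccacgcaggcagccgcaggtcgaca
Rrm2 held a single CCAAT box, and the letters of none of the 3 elements were found in the window of Nusap1.

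All values below are log2 of the processed signal minus the array's 75th percentile, so they rank samples for 1 probe and not one gene against another. Nampt itself was at 1.80, 1.5 and 1.53 in the knockouts, against 2.78, 2.59 and 2.65 in the controls. It fell by 1.06 ± 0.10 (log2, SE; limma adjusted p = 0.0430), and the groups did not overlap; whether its probe lies inside the deleted part is not known. All 8 proximal tubule markers were well above background, and their median difference between the groups was -0.0073. The 3 controls and Nampt CKO 1 lay in the first row of the slide and Nampt CKO 2 and 3 in the second, which makes row and genotype overlap in part. Between 57.3% and 63.3% of the spots of an array were well above background and none was saturated. The lowest shares were those of Nampt CKO 3 (57.3%) and Nampt CKO 2 (58.1%). The replicates are separate mice by their labels, and 3 against 3 limits the precision of every value.

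None of the 32 members passed limma's test at an adjusted p under 0.05, which 0.17% of all genes passed (0.105% higher and 0.0653% lower). At an unadjusted p under 0.05, Nusap1, Rrm2 and Mcm7 were higher in the knockouts and none was lower, 3 of 32 members (9.38%) against 12.8% of all genes in either direction (6.69% higher and 6.13% lower). The share at that level was therefore no larger than that of the array as a whole. What the members shared was a sign of small size: 30 of 32 differences lay above 0, where 47.1% of all genes did, with a median of 0.17 against -0.0077 over all genes. That sign did not hold with slide row as a block, where 14 of 32 lay above 0 and the median was -0.020. That fit compares Nampt CKO 1 alone with the controls, so it cannot tell slide row from this single animal. Leaving out 1 array moved the median between 0.07 and 0.30. Most members also moved together from animal to animal, so their signs are not separate observations. The same 3 members were the only ones whose groups did not overlap, 9.38% of the members beside 19.5% of all genes in either direction (9.04% with the knockouts higher and 10.5% with them lower). The median standard error was 0.15, close to the median difference itself.

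**Figure D1:**
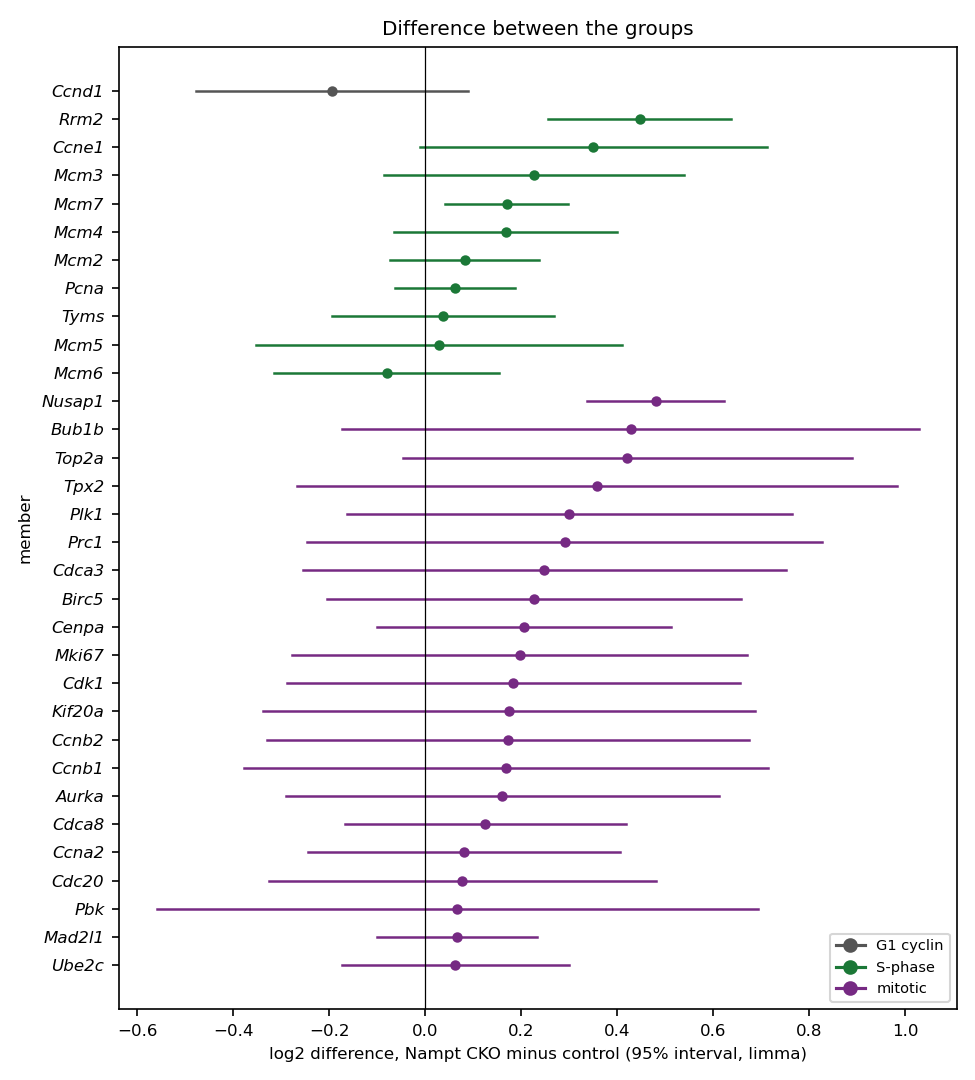
Log2 difference between Nampt CKO and control kidneys (points) with limma's 95% interval, not adjusted for the number of genes (lines), for the 32 members tested, coloured by class. The intervals of Nusap1, Rrm2 and Mcm7 lie above 0, and those of the other members cross it.

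Ccnd1, which encodes a cyclin of early G1, was at 4.05, 4.29 and 4.36 in the knockouts, against 4.24, 4.54 and 4.50 in the controls. The groups overlapped, with Nampt CKO 1 lowest of all and control 1 lowest of the controls, and the difference was -0.19 ± 0.12 (SE; limma adjusted p = 0.561). Ccnd1 and the helicase gene Mcm6, at -0.08 ± 0.10, were the only 2 tested members below 0.

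Of the cyclin E genes that open S phase, Ccne1 was at -2.40, -2.16 and -2.10 in the knockouts, against -2.36, -2.50 and -2.86 in the controls. Nampt CKO 1 lay below control 1, so the groups overlapped by a narrow margin, and the difference was 0.35 ± 0.15 (SE; limma adjusted p = 0.403). Ccne2 was not well above background on any array and was not tested.

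The 6 MCM genes encode the ring-shaped helicase that unwinds DNA at replication forks. Mcm7 was at 2.11, 2.21 and 2.09 in the knockouts, against 1.99, 1.93 and 1.97 in the controls. Every knockout lay above every control, by a difference of 0.17 ± 0.05 (SE; limma adjusted p = 0.289) that is small beside those of Rrm2 and Nusap1. Mcm3 was at -0.19, 0.15 and 0.0068 in the knockouts, against -0.019, -0.38 and -0.32 in the controls, and Nampt CKO 1 lay below control 1. Mcm4 was at 0.84, 1.06 and 1.08 in the knockouts, against 0.96, 0.80 and 0.72 in the controls, with the same overlap. Mcm2 was at -0.44, -0.24 and -0.36 in the knockouts, against -0.39, -0.46 and -0.44 in the controls. For all 3 of these genes a single knockout, Nampt CKO 1, fell among the controls, and their differences were 0.23 ± 0.13, 0.17 ± 0.09 and 0.08 ± 0.06 (SE; limma adjusted p between 0.527 and 0.657). Mcm5 was at 0.03 ± 0.16, with Nampt CKO 1 at -0.82 below every other animal. The subunits of 1 helicase thus had a median difference of 0.13, with 5 of 6 above 0 and none past the adjusted threshold.

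Among the genes of DNA synthesis, Rrm2 encodes the regulated subunit of ribonucleotide reductase, which makes deoxynucleotides. Rrm2 was at 0.78, 1.03 and 0.91 in the knockouts, against 0.51, 0.39 and 0.47 in the controls. The lowest knockout lay clear of the highest control, and the difference was 0.45 ± 0.08 (SE; limma adjusted p = 0.138), a 1.36-fold higher signal with a 95% interval on the log2 scale of 0.26 to 0.64. Rrm2 lies on chromosome 12, as Nampt does, and was the only member there. Of the 30 genes tested that lie between them in the RefSeq table, 11 had an unadjusted p under 0.05 (36.7%), against 12.5% of the genes on other chromosomes; the part of that neighbourhood in the Rrm2 value was not tested.

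Pcna, which encodes the sliding clamp of the DNA polymerases, was at 3.22, 3.33 and 3.27 in the knockouts, against 3.24, 3.18 and 3.20 in the controls. The groups overlapped within a narrow range, the difference was 0.06 ± 0.05 (SE; limma adjusted p = 0.677), and its 95% interval ended at 0.19. Tyms, thymidylate synthase, was at 0.04 ± 0.09. Over the 10 S-phase members tested, the median difference was 0.13, with 9 above 0.

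**Figure D2:**
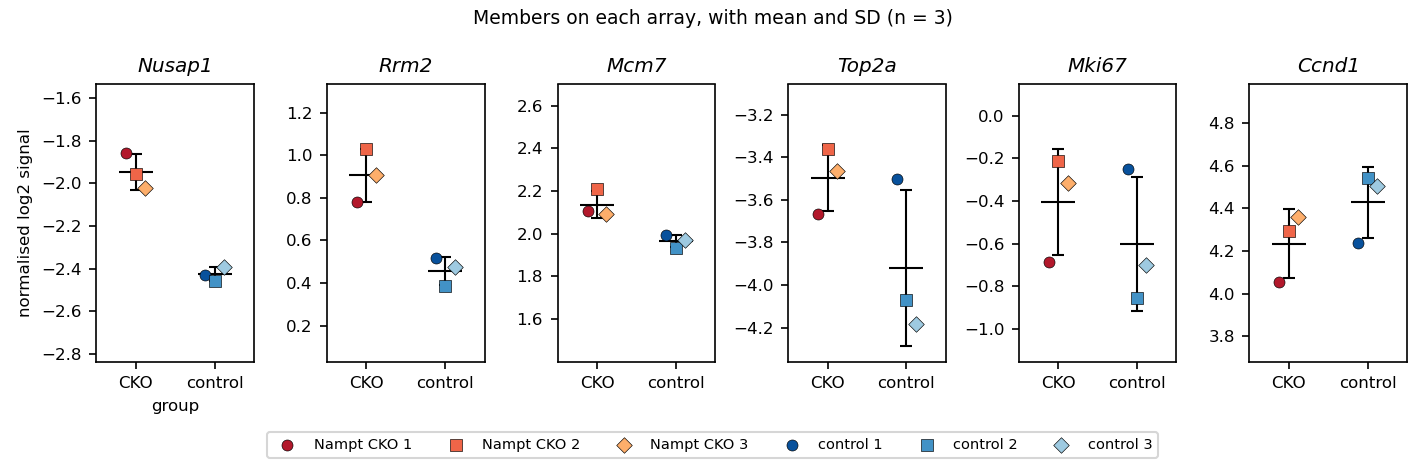
Normalised log2 signal of 6 members on each array (points), with the group mean and SD (n = 3, bars); each panel spans the same range of log2 units. Nusap1, Rrm2 and Mcm7 separate the groups, whereas for Top2a and Mki67 control 1 lies among the knockouts, and Ccnd1 is lower in the mean of the knockouts.

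Among the mitotic members, the animals within a group lay far apart. Mki67, the standard marker of cycling cells, was at -0.69, -0.21 and -0.31 in the knockouts, against -0.25, -0.85 and -0.70 in the controls. Control 1 was as high as Nampt CKO 2 and 3, and Nampt CKO 1 was as low as controls 2 and 3, which left a difference of 0.20 ± 0.19 (SE; limma adjusted p = 0.732). A further Mki67 probe had a difference of 0.21. Top2a, the topoisomerase that untangles chromosomes, was at -3.67, -3.36 and -3.47 in the knockouts, against -3.50, -4.07 and -4.18 in the controls. Here only control 1 overlapped the knockouts, and the difference was 0.42 ± 0.19 (SE; limma adjusted p = 0.433). That difference was 0.16 after normexp background correction and quantile normalisation.

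Cdk1, the kinase that triggers mitosis, was at -3.73, -3.12 and -3.15 in the knockouts, against -3.29, -3.66 and -3.60 in the controls. Nampt CKO 1 was the lowest of all 6 animals, and the difference was 0.18 ± 0.19 (SE; limma adjusted p = 0.752). Its partner gene Ccnb1 was at -3.40, -2.63 and -3.03 in the knockouts, against -3.03, -3.49 and -3.05 in the controls. The knockouts spanned a wider range than the controls and overlapped them (0.17 ± 0.22, SE; limma adjusted p = 0.810). Ccnb2 and Ccna2, the other cyclins of this step, were at 0.17 ± 0.21 and 0.08 ± 0.13.

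Of the mitotic kinases, the Polo kinase gene Plk1 was at -1.33, -0.64 and -0.94 in the knockouts, against -1.07, -1.34 and -1.40 in the controls. Nampt CKO 1 lay among the controls, and the difference was 0.30 ± 0.19 (SE; limma adjusted p = 0.583). Aurka, the Aurora kinase of the spindle poles, was at 0.16 ± 0.18 and the kinase gene Pbk at 0.07 ± 0.26. Aurkb, the Aurora kinase of the centromeres, was not well above background on any array.

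In the spindle checkpoint, which holds anaphase until chromosomes are attached, Bub1b was at -4.25, -3.61 and -3.96 in the knockouts, against -3.91, -4.54 and -4.66 in the controls. Control 1 was above 2 of the 3 knockouts, and the difference was 0.43 ± 0.25 (SE; limma adjusted p = 0.538). Bub1 was well above background only on the array of control 1 and was not tested. Mad2l1 was at 0.07 ± 0.07 by its brightest probe and at -0.27 and -0.19 by its other 2 probes, so its direction depends on the probe. Cdc20 and Ube2c, the activator and the ubiquitin-conjugating enzyme of the anaphase-promoting complex, were at 0.08 ± 0.16 and 0.06 ± 0.10, and Cdca3, which promotes mitotic entry, at 0.25 ± 0.21.

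At the centromere, the histone variant gene Cenpa was at -2.39, -2.18 and -2.06 in the knockouts, against -2.20, -2.53 and -2.51 in the controls. Nampt CKO 1 fell between control 1 and the other 2 controls (0.21 ± 0.13, SE; limma adjusted p = 0.565). Birc5 and Cdca8, which encode survivin and borealin of the chromosomal passenger complex, were at 0.23 ± 0.18 and 0.13 ± 0.12. The further probes kept for these 2 genes and for Ube2c were at 0.25 to 0.42, above 0 as well.

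The spindle genes held the exception among the mitotic members. Nusap1, which encodes a protein that bundles spindle microtubules, was at -1.86, -1.95 and -2.02 in the knockouts, against -2.43, -2.46 and -2.39 in the controls. The 2 groups stood well apart with little spread in either, at -1.95 ± 0.08 in the knockouts and -2.43 ± 0.03 in the controls (SD, n = 3 each). The difference was 0.48 ± 0.06 (SE), a 1.40-fold higher signal, with a limma adjusted p of 0.0696 that missed the threshold of 0.05.

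Tpx2, an activator of Aurora A, was at -3.67, -3.11 and -3.23 in the knockouts, against -3.22, -4.10 and -3.77 in the controls (0.36 ± 0.26, SE; limma adjusted p = 0.629). Prc1, which bundles microtubules of the central spindle, was at -1.85, -1.33 and -1.60 in the knockouts, against -1.45, -2.09 and -2.11 in the controls (0.29 ± 0.22, SE; limma adjusted p = 0.650). In both, control 1 lay above Nampt CKO 1 and well above the other controls. The kinesin gene Kif20a was at 0.17 ± 0.21. Its relative Kif11 was well above background on the arrays of Nampt CKO 1 and control 1 alone and was not tested.

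**Figure D3:**
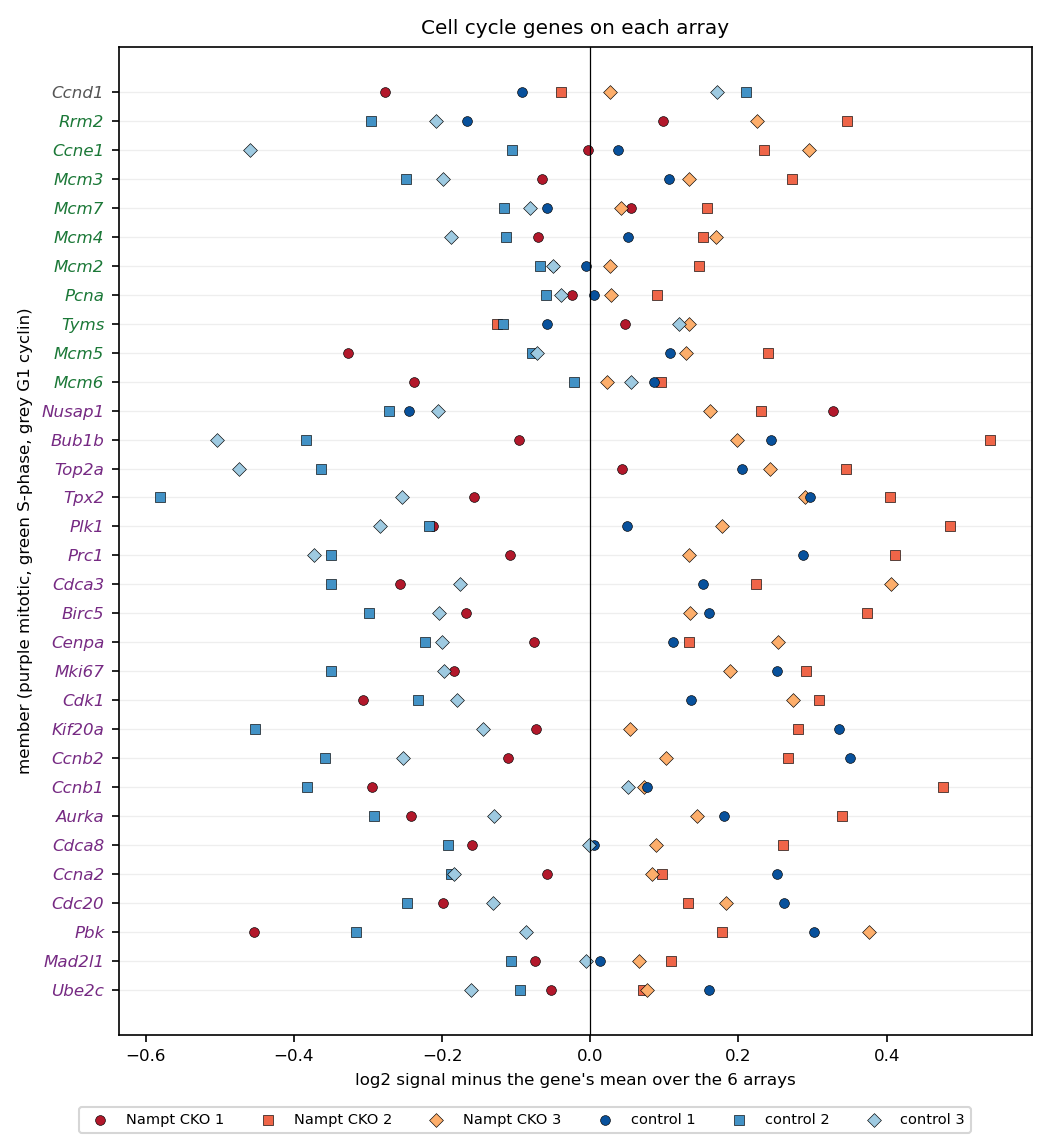
Log2 signal of each tested member on each array, minus the gene's mean over the 6 arrays, with Nampt CKO arrays in red to orange and control arrays in blue. For 18 of the 21 mitotic members (purple) control 1 and Nampt CKO 2 and 3 lie above the mean and Nampt CKO 1 and controls 2 and 3 below it; Nusap1, Top2a and Ccnb1 differ.

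The shared order of the animals was counted over the members. Control 1 was the highest control in 20 of the 21 mitotic members tested (95.2%) and in 29.1% of all genes. Nampt CKO 1 was the lowest knockout in 20 of the 21 as well, and in 41.2% of all genes. Both held at once in 20 mitotic members, in 8 of the 10 S-phase members and in 9.99% of all genes, and Nusap1 was the mitotic member that met neither. Among the S-phase members the order was thus the same, but the animals lay closer together. The median SD between animals of a group was 0.25 in the knockouts and 0.25 in the controls for mitotic members, 0.13 and 0.09 for S-phase members, and 0.08 and 0.09 for all genes.

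Deviations from the group means were also correlated between pairs of members across the 6 arrays, as a description, since all genes of an array share its animal, its RNA and its hybridisation. The median Pearson r over the 210 mitotic pairs was 0.86, over the 45 S-phase pairs 0.78 and over all pairs of genes 0.04. An r above 0.8 was found in 61.4% of mitotic pairs, in 44.4% of S-phase pairs and in 7.49% of all pairs. With the other mitotic members, Mki67 had a median r of 0.92, Ccnb2 0.91 and Cdc20 0.91, whereas Nusap1 had -0.42. Of the S-phase members, Mcm3 followed the mitotic genes most closely, with 0.91, while Tyms, at -0.19, and the G1 cyclin gene Ccnd1, at -0.14, did not.

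S-phase and mitotic members were then set against each other array by array, as the median over each class of the log2 signal minus the gene's mean. The mitotic median was -0.16, 0.28 and 0.16 in the knockouts, against 0.18, -0.30 and -0.18 in the controls. The S-phase median was -0.037, 0.16 and 0.13 in the knockouts, against 0.02, -0.11 and -0.08 in the controls. Both classes overlapped between the groups, and the S-phase medians kept the same animals high and low over a narrower span.

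The S-phase median minus the mitotic median was 0.12, -0.13 and -0.03 in the knockouts, against -0.16, 0.19 and 0.11 in the controls. Its mean was -0.01 ± 0.12 in the knockouts and 0.05 ± 0.18 in the controls (SD, n = 3 each), a difference of -0.06 that was smaller than the spread between animals. The mitotic median enters this value, and its sign followed the animal. It was below 0 where the mitotic genes were high and above 0 where they were low, in both groups. The median differences of the 2 classes, 0.13 for S-phase and 0.18 for mitotic members, were therefore not told apart by these arrays, and no test was made over the members.

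**Figure D4:**
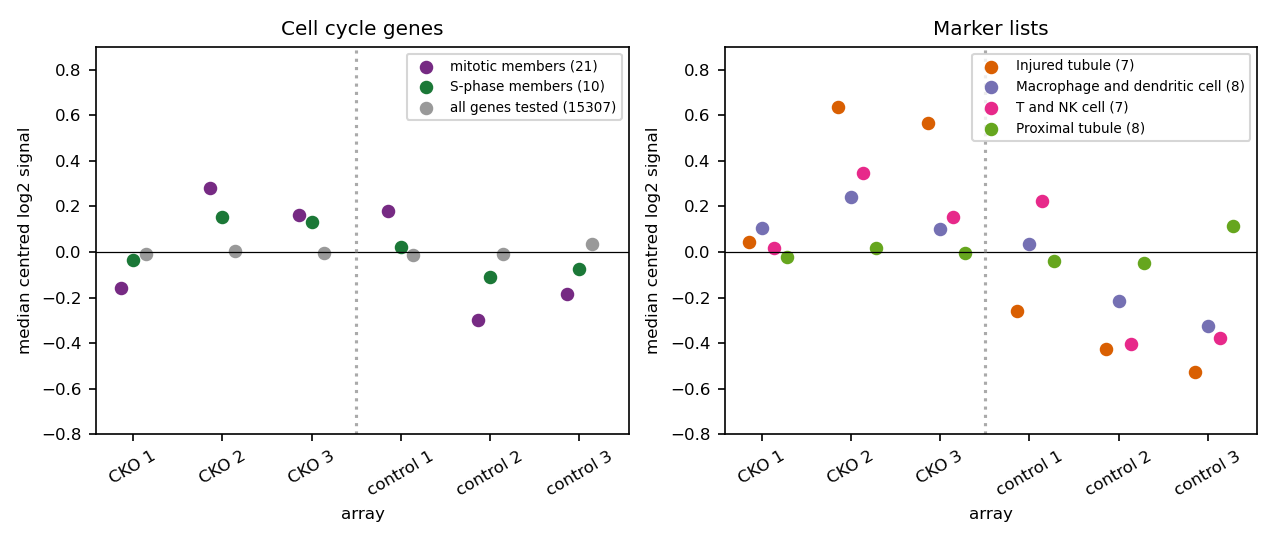
Median over each list (number of genes tested in brackets) of the log2 signal minus the gene's mean over the 6 arrays, for each array; the dotted line parts Nampt CKO from control. Mitotic members are at 0.28 and 0.16 in Nampt CKO 2 and 3 and at 0.18 in control 1, and the T and NK cell markers share that order. The medians of the injured tubule markers do not overlap between the groups, nor do those of the macrophage and dendritic cell markers.

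Marker lists of other cells were read beside the mitotic genes, with counts at an unadjusted p under 0.05, where 12.8% of all genes lie (6.69% higher and 6.13% lower). The 7 T and NK cell markers (1 higher and 1 lower) had medians of 0.02, 0.35 and 0.15 in the knockouts, against 0.22, -0.40 and -0.38 in the controls, so that control 1, Nampt CKO 2 and Nampt CKO 3 were again the high animals. Macrophage and dendritic cell markers (8 of 8 tested, 6 higher) had medians of 0.10, 0.24 and 0.10 in the knockouts, against 0.03, -0.22 and -0.33 in the controls. The 4 B and plasma cell markers tested (2 higher) had medians of 0.35, -0.026 and 0.06 in the knockouts, against 0.19, -0.32 and -0.33 in the controls. Neutrophil markers ran the other way, with medians of -0.13, -1.5 and -0.96 in the knockouts, against 1.11, 0.70 and 0.82 in the controls (4 of 5 tested, 3 lower). Erythroid markers (4 of 6 tested, none at an unadjusted p under 0.05) had medians of 0.33, -0.65 and -0.76 in the knockouts, against 0.60, 0.34 and 0.11 in the controls. Endothelial, fibroblast and pericyte, and podocyte markers had median differences of -0.0053, 0.21 and 0.02. The part of these cells in the mitotic values was not tested.

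Of the 7 injured tubule markers, all tested, 6 were higher at an unadjusted p under 0.05 (6.69% of all genes were). The groups did not overlap for 4 of the 7, with the knockouts higher, as for 9.04% of all genes. They overlapped for Krt20, Vcam1 and Krt18. The list's medians were 0.05, 0.64 and 0.57 in the knockouts, against -0.26, -0.43 and -0.53 in the controls. Havcr1, the gene of kidney injury molecule KIM-1, was at -1.90, 0.59 and 0.23 in the knockouts, against -3.77, -4.17 and -4.27 in the controls. Nampt CKO 1 was thus the lowest knockout for Havcr1 as for the mitotic genes, and control 1 was the highest control for both, though far below every knockout for Havcr1. The difference in Havcr1 did not pass over all genes (3.71 ± 0.65, SE; limma adjusted p = 0.138).

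Further cell cycle genes were read by role, and none of them passed the adjusted threshold; the counts that follow are at an unadjusted p under 0.05, where 12.8% of all genes lie. In origin licensing and firing, 4 of 15 tested genes were higher and 1 was lower. Cdt1, which loads the MCM helicase onto origins, was at 0.97, 1.1 and 0.92 in the knockouts, against 0.51, 0.46 and 0.53 in the controls. The groups were far apart beside their spread, and the difference was 0.50 ± 0.06 (SE; limma adjusted p = 0.0696). Mcm8, Orc6 and Orc3, the last 2 of the origin recognition complex, were at 0.32 ± 0.07, 0.19 ± 0.05 and -0.22 ± 0.05, so this group did not share 1 direction. Of 21 replication fork genes 3 were higher, Pola1 (0.16 ± 0.05), Prim1 (0.18 ± 0.06) and Rfc3 (0.24 ± 0.08), and 19 lay above 0, with a median of 0.09.

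Of 29 other mitotic genes tested, out of 42 listed, 5 were higher and 4 lower, with a median of 0.13. Their medians by animal, -0.07, 0.12 and 0.06 in the knockouts, against 0.10, -0.15 and -0.06 in the controls, were above 0 in the same 3 animals as those of the mitotic members, on a smaller scale. Kif20b, a kinesin of cytokinesis, was at 1.36, 0.87 and 0.91 in the knockouts, against 2.14, 1.80 and 1.69 in the controls, the widest difference of this list (-0.83 ± 0.17, SE; limma adjusted p = 0.188). Its relative Kif20a was at 0.17 ± 0.21. Ccnf, Ect2 and Cdca2 were at 0.30 ± 0.08, -0.18 ± 0.05 and -0.43 ± 0.14. Cdca2, counted among the 4 lower, was kept through the controls alone. On the array of Nampt CKO 3 it was at -5.19, below the lowest signal called well above background there (-4.64). The size of its difference is therefore uncertain.

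Among the inhibitors of cyclin-dependent kinases, 2 of 7 tested genes were higher, Cdkn1a and Cdkn1b. Cdkn1a, which encodes p21, was at -0.79, -0.23 and -0.075 in the knockouts, against -0.85, -0.80 and -0.82 in the controls. The knockouts lay above the controls, Nampt CKO 1 only narrowly, with a difference of 0.46 ± 0.18 (SE; limma adjusted p = 0.379). Cdkn1b, which encodes p27, was at 2.44, 2.48 and 2.54 in the knockouts, against 2.29, 2.32 and 2.29 in the controls (0.18 ± 0.05, SE; limma adjusted p = 0.236). For both genes every knockout lay above every control, and neither passed over all genes.

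Transcripts of the factors that drive the waves of transcription did not share 1 direction. Of 12 E2F and RB family genes tested, 2 were higher, Rbl1, which encodes p107, at 0.23 ± 0.06 and Tfdp2 at 0.24 ± 0.08. E2f6 was at 0.14 ± 0.07 and E2f7 at -0.30 ± 0.16, and the list median was -0.04. In the MuvB, B-Myb and FoxM1 list 1 of 7 was lower, Lin37 at -0.19 ± 0.07, and B-Myb, encoded by Mybl2, was at 0.08 ± 0.06. None of 10 G1 cyclins and kinases reached an unadjusted p under 0.05, with Myc at 0.33 ± 0.14. None of 7 DNA damage checkpoint genes did either, with Chek1 at -0.48 ± 0.27. Chek1 was kept through the controls alone. In Nampt CKO 2 and 3 it was at -5.55 and -5.69, below the lowest signals called well above background there (-4.72 and -4.64). The size of its difference is therefore uncertain.

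Single animals weighed heavily on the members' counts. Without control 1, 13 members were higher and 1 lower at an unadjusted p under 0.05 (43.8%, beside 14.2% of all genes in that fit), and the median difference was 0.29. Without Nampt CKO 1, 8 were higher (25% beside 13%) and the median was 0.30. Without Nampt CKO 2 or control 2, 2 were higher (6.25% beside 9.34% and 9.38%) and the median was 0.09 and 0.07. When slide row was fitted as a block, only Nampt CKO 1 was compared with controls of its own row. In that fit 2 members were higher and 3 lower (Ccnd1, Mcm5 and Mcm6; 15.6% beside 10.2% of all genes), and the median of the mitotic members was -0.042. Nusap1 stayed at 0.57 and Rrm2 at 0.32 there (limma adjusted p = 0.0886 and 0.349).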

How the data were processed

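Kidney RNA of 6 mice was read on Agilent SurePrint G3 mouse arrays. Per the file headers, Feature Extraction 10.7.1.1 made the spot intensity used here, subtracting background and spatial trend, with 0 or 1 flags per spot as deposited. The value table deposited by the authors is a linear ratio. For all 13933 to 13936 probes compared, those with a deposited value above 1, it equalled the signal over 1 constant per array within 1%. Dimmer probes were not compared in this way. Outlier spots were left out, spots of a probe averaged in log2, and the 75th percentile of the 55681 probes taken off array by array. A probe was kept if every array of either group had it well above background (32946 probes). Accessions were matched without versions to RefSeq on GRCm38.p6, used for names, promoter sequences and gene order only, since the array's build is mm9 per the file headers; 28026 probes were named and 27655 were not. The kept probe of highest mean stood for a gene. Groups were compared by limma 3.58.1 in R 4.3.3 (lmFit, eBayes), with Benjamini-Hochberg adjustment over 15307 genes. An exact permutation test of 3 against 3 cannot go below p = 0.1. Tested on simulated data for this comparison (15305 genes), the fit found 59.1% of changes of 1.5-fold, 85.9% at 2-fold and 95.5% at 4-fold. The share found at the standard errors of the members was not tested. Their median was 0.19 for mitotic members and 0.09 for S-phase members, against 0.073 for all genes tested.

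Members, lists and the rule for named genes were chosen with earlier results of these data known. By that rule, values on every array are given for Mki67, Top2a, Cdk1, Ccnb1, Pcna, Mcm2 and Ccnd1 and for the 5 S-phase and 7 mitotic members of smallest p, members not tested are named, and up to 4 genes of smallest p come from each further list. Values of Havcr1 were added after they were seen. Same-numbered animals are not stated to be paired. Alternatives covered scaling, background, filter, probes, variance, weights, blocks and each array left out. Python 3.11.15 with pandas 2.3.3 and matplotlib 3.10.9 read the files and drew the plots.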

Additional observations from a re-analysis of the deposited data

How the results depend on the processing

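No member passed the adjusted threshold under any alternative except array weights, with 1 (Nusap1, 0.47, limma adjusted p = 0.0388), and no filter on dim probes, with 1 (Aurkb, not well above background on any array). At an unadjusted p under 0.05, against 3, array weights gave 8 members (25%, beside 17.2% of all genes) and slide row as a block 5 (15.6% beside 10.2%); leaving out 1 array gave 2 to 14 (6.25% to 43.8%, beside 9% to 14.2%). Leaving out 1 array moved the median difference of all members between 0.070 and 0.30, of mitotic members between 0.072 and 0.36, of S-phase members between 0.11 and 0.19, and the S-phase minus mitotic difference between -0.22 and 0.039. With slide row as a block these were -0.020, -0.042, 0.031 and 0.073. That fit compares Nampt CKO 1 alone with the controls. In it 16 members turned: Mcm2 -0.0088, Mcm5 -0.31, Ccna2 -0.018, Ccnb1 -0.21, Ccnb2 -0.024, Cdk1 -0.21, Aurka -0.16, Plk1 -0.062, Pbk -0.42, Mad2l1 -0.042, Cdc20 -0.16, Ube2c -0.021, Cdca3 -0.13, Birc5 -0.054, Cdca8 -0.097 and Mki67 -0.086. The S-phase minus mitotic difference was 0.011 with normexp, where Mcm5 (-0.019), Cdk1 (-0.018) and Mad2l1 (-0.012) turned, and -0.17 with array weights. Normexp lowered the median difference of mitotic members to 0.11, beside 0.12 for S-phase members. It also lowered Top2a to 0.16, Bub1b to 0.11 and Tpx2 to 0.15. Quantile normalisation turned Tyms (-0.0046) and Pbk (-0.00020). Mad2l1 was at -0.13 as the mean of its probes, and at -0.27 and -0.19 by its other probes, an alternative added after seeing the data. Leaving out 1 array turned Mcm5 (-0.084 to 0.20), Mcm6 (-0.15 to 0.019), Tyms (-0.021 to 0.11), Ccnb1 (-0.027 to 0.36), Pbk (-0.10 to 0.31), Cdc20 (-0.026 to 0.23), Ube2c (-0.0015 to 0.16) and Kif20a (-0.0081 to 0.39). The cause was not tested. Nusap1 ranged from 0.32 to 0.57 (limma adjusted p 0.0388 to 0.292) and Rrm2 from 0.32 to 0.51 (0.0600 to 0.393).

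Over all genes, 26 passed, against 89 with array weights, 77 with no filter, 57 with trended and robust variance, 11 with quantile normalisation, 16 with slide row as a block, and 0 to 57 with 1 array left out; without control 2 or control 3 limma called 0 (1436 and 1550 at an unadjusted p under 0.05). Same-numbered animals did not deviate together (r of 0.10, -0.096 and -0.025). With the replicate block limma called 0 genes (1636 at an unadjusted p under 0.05) and 3 members at that level, of which 2 were higher and 1 (Ccnd1) lower. Normexp was run on median foreground and background signals. Dim members limit what 3 arrays a group can show.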
